A study of Mus musculus with 3 samples.

Results

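Liver tumor tissue of a female Gnmt-/- mouse, called hepatocellular carcinoma (HCC) in the labels, was set against liver of a female wild type mouse, with 1 array for each. Every gene of the array with a name was taken, so the comparison holds all 19084 of 19084 genes and 2 of the series' 3 arrays. The third array, of the Ymac-1 cell line grown from a Gnmt-/- liver tumor, entered the scaling and the choice of probes. Neither tissue had a treatment, the ages of the 2 mice are not in the labels, and no source used here says whether the tumor on the array is the one that gave Ymac-1. Genotype and tumor differ together between the arrays: tumor-free Gnmt-/- liver and wild type tumor were not analysed here, so the absence of Gnmt and the presence of a tumor cannot be told apart. With 1 array a side no difference has a replicate check, no test was possible and none is given.

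Gnmt encodes glycine N-methyltransferase, an abundant hepatocyte enzyme that moves a methyl group from S-adenosylmethionine to glycine and so drains the methyl donor when it is in excess. Mice without the enzyme are known to accumulate S-adenosylmethionine in the liver and to develop fatty liver and liver tumors. Normal liver is a tissue of hepatocytes with resident macrophages (Kupffer cells), sinusoidal endothelium, stellate cells and bile ducts. It makes most plasma proteins, clears drugs and hormones through cytochrome P450 enzymes and burns fatty acids, and many of its genes differ between females and males under the control of growth hormone. Liver tumors are known to switch on genes of the fetal liver and to take up more glucose.

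Each array gives a fluorescence intensity per probe, and each gene is represented by its brightest probe. Intensities were compared after quantile normalization, which gives all arrays the same spread of values, and under a floor of 50 on that scale no level is read. A gene is said to be read on both arrays where it was over 50 on both, on the normalized scale and as deposited. A difference is the log2 of HCC over normal liver, and a gene is called higher or lower where it reached at least 1 in size, a 2-fold difference. Of the 19084 genes, 916 (4.8%) were higher and 626 (3.28%) lower in HCC. Among the 10478 genes above the floor on 1 or both arrays these were 8.74% and 5.97%. Scaling decides how many genes are called: on the deposited scale, where the median gene read on both arrays already differed by 0.65, 3028 genes (15.9%) were higher and 143 (0.749%) lower. All of the 916 higher genes were higher on both scales, but 143 of the 626 lower genes were lower on both. This asymmetry follows from the direction of the scaling, so the deposited scale checks the calls of lower genes alone. Centring each array on its median probe shifts the other way. It kept the calls of 557 of the 916 higher genes and of all 626 lower genes. For each gene list counted below, the numbers higher and lower on the deposited scale follow the normalized ones. Over the 8691 genes read on both arrays the median normalized difference was -0.08, with the 5th percentile at -1.09 and the 95th at 1.15. In what follows a pair of values is the deposited intensity in normal liver and then in HCC, and a signed number after it is the normalized log2 difference. The floor corresponds to a deposited intensity of 27.8 in normal liver and 73.6 in HCC.

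**Figure D1:**
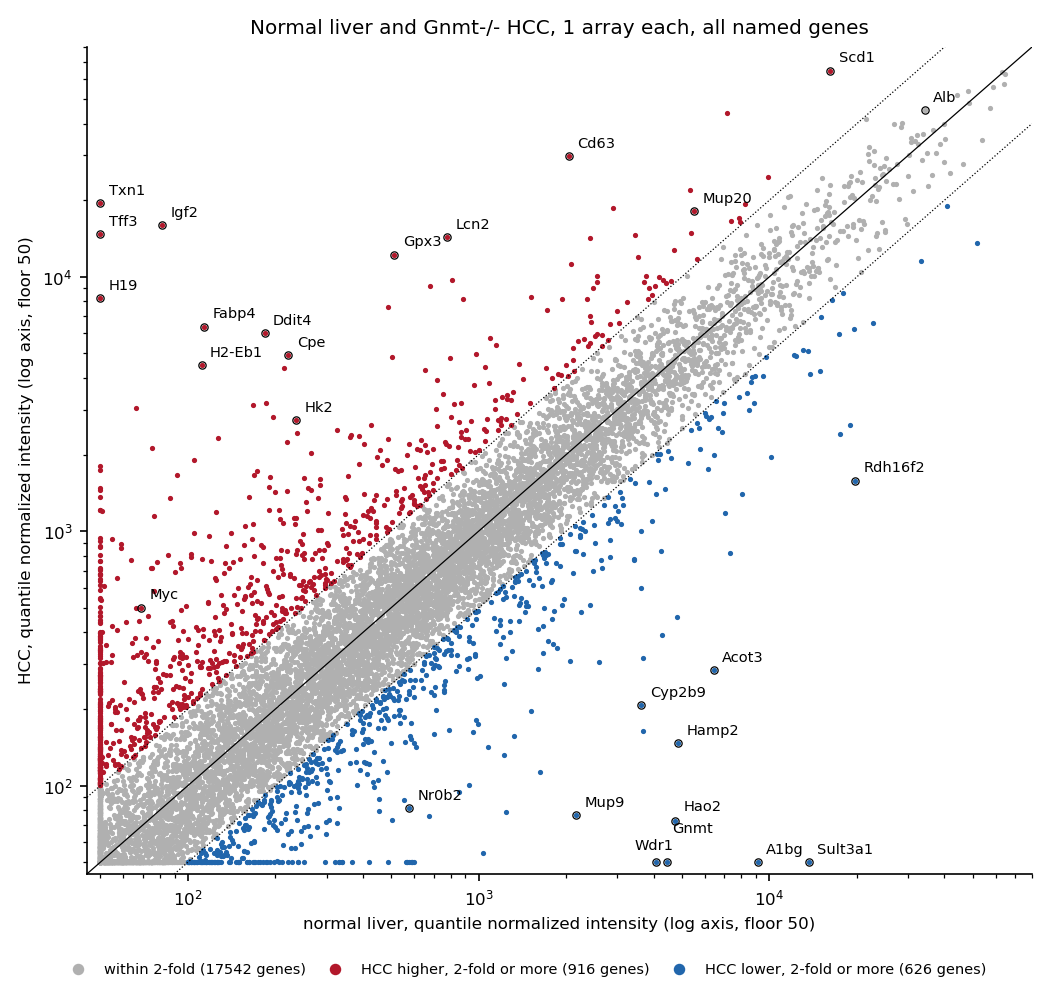
Quantile normalized intensity of every named gene on the normal liver array (horizontal, log axis) and the HCC array (vertical, log axis), 1 point per gene, with values under 50 drawn at 50. Red points are the 916 genes higher in HCC, blue points the 626 lower, the solid line is equality and the dotted lines mark 2-fold.

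Gnmt itself read 3583 in normal liver and 15.6 in HCC, at least 89.2-fold lower on the normalized scale. Xist, the RNA of the inactive X chromosome, read 464 and 499.7, and the 4 Y-linked genes with a probe were at the floor on both arrays. The 5 defining hepatocyte markers were bright on both arrays and all within 2-fold. Alb (albumin) read 33715 and 50944, Ttr (transthyretin) 43708 and 56918, and their normalized differences were 0.41 and 0.23. The markers of muscle and fat tissue were at the floor on both arrays after normalization.

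Among genes read on both arrays, the largest differences upward were spread over growth, lipid, immune and stress genes. Genes above the normalized floor but under 50 as deposited in normal liver, such as Cbr3 and Ppp1r3g, are not ranked here and are described with their lists. Igf2, the fetal growth factor, read 53 in normal liver and 18984 in HCC, a normalized difference of 7.61. Fabp4, a fatty acid carrier best known from fat cells and macrophages, read 78.1 and 7149, and H2-Eb1, a chain of MHC class II, 76.4 and 4918, for differences of 5.81 and 5.33. Both were dim in liver and bright in the tumor by these probes. The other H2-Eb1 probe was at the floor on both arrays. Ddit4, a stress-induced brake on the growth kinase mTORC1, stood at 126 and 6668 (5.03). Gpx3, a secreted glutathione peroxidase, went from 355 to 14076 (4.57) and Cpe, a carboxypeptidase that matures peptide hormones, from 152 to 5403 (4.47). The remaining 14 of the 20 highest genes differed by between 3.53 and 4.36. They included the antiprotease Slpi (116 and 3418), the ubiquitin-like modifier Ubd (87.7 and 2513), the platelet chemokine Pf4 (71.5 and 2116), and Cd63, a tetraspanin of late endosomes (1506 and 34623). The other Cd63 probe was at the floor on both arrays. For Calml4 the probes disagreed, with 4.10 for the brighter and 0.28 for the other.

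A further group of genes was dark in normal liver and bright in HCC, so that a lower bound alone can be given. Tff3, a peptide of mucous epithelia, read 2.59 in normal liver and 17518 in HCC, at least 295-fold higher. H19, the imprinted RNA beside Igf2, read 15.5 and 9547, at least 165-fold higher. Tspan8, an epithelial tetraspanin, read 24.7 and 1995, and Elf3, a transcription factor of epithelia, 16.4 and 1502, at least 35.9-fold and 27.3-fold higher. Slc7a11, the cystine importer that feeds glutathione synthesis, read 11.4 and 1608, at least 29.2-fold higher. Each of these lay under the floor in normal liver. Of the 10 brightest such genes, 3 are used by most cells, and their readings near 0 in normal liver are listed here as readings and not as absence: Txn1 (thioredoxin) with 4.04 and 22535, Flot1 (a membrane raft protein) with -0.483 and 1933, and Sun2 (a nuclear envelope protein) with -3 and 1628. On the third array, of Ymac-1, the deposited values were 5.1, 3441 and -0.541, so Txn1 and Sun2 were bright on the HCC array alone.

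**Figure D2:**
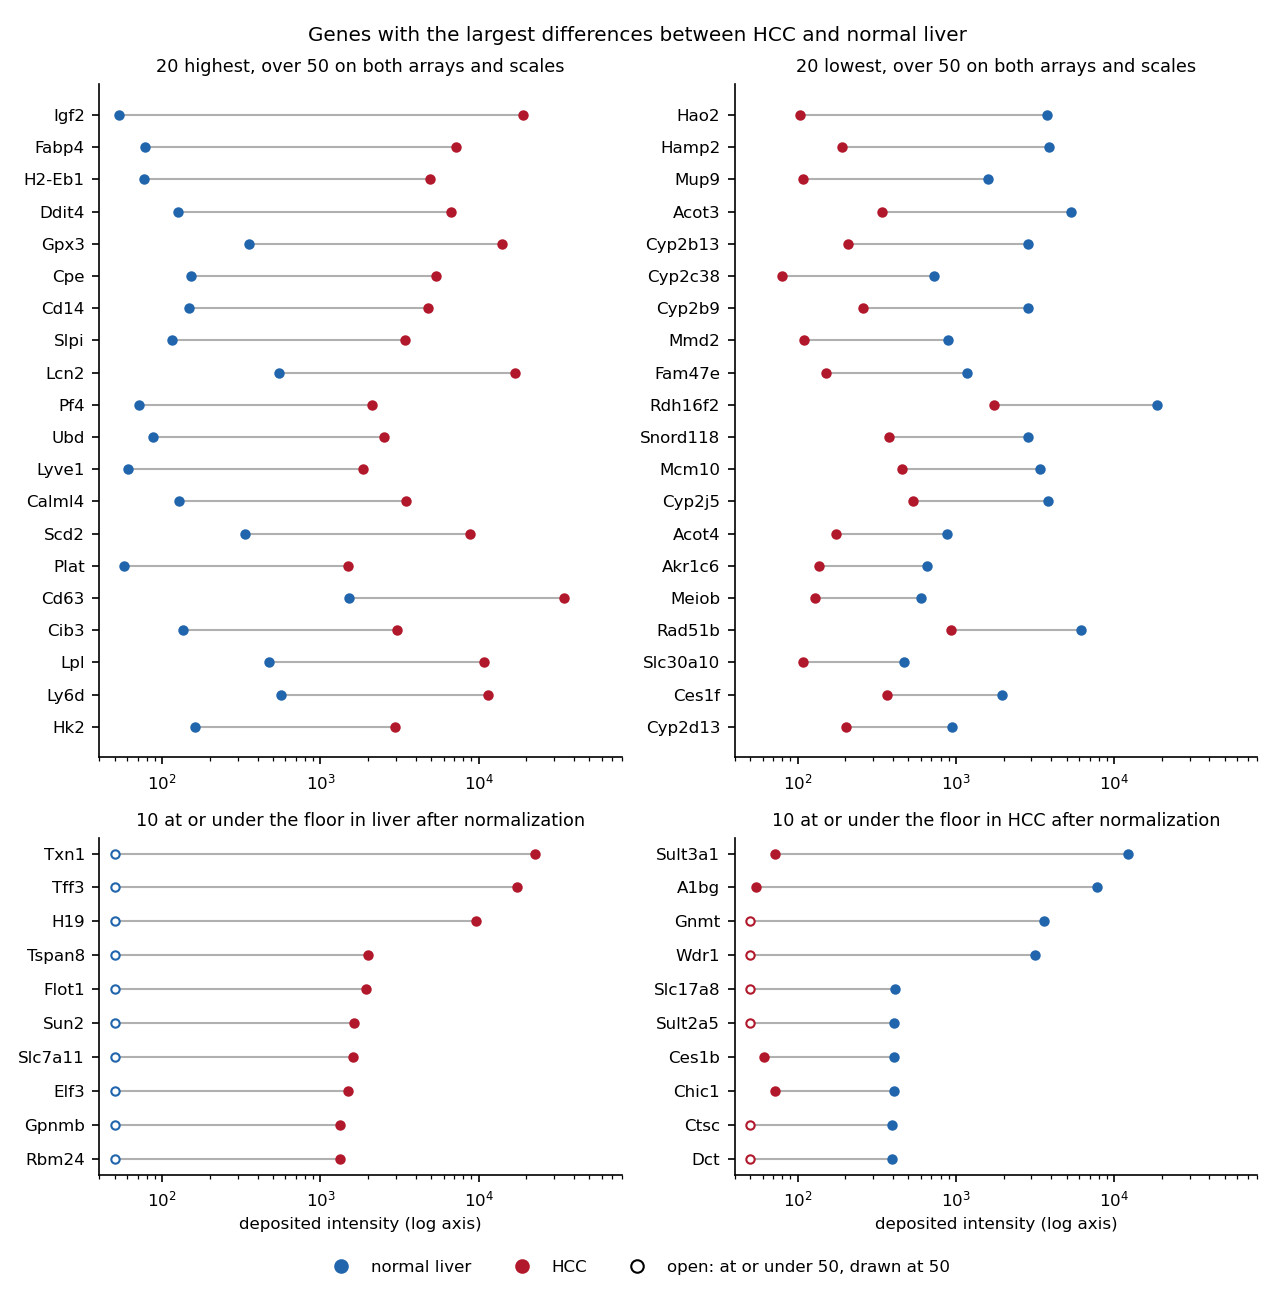
Deposited intensity (log axis) on the normal liver (blue) and HCC (red) arrays of the 20 genes with the highest and the 20 with the lowest normalized differences among those read on both arrays (over 50 on both scales), and of the 10 brightest genes at or under the floor on 1 array. Igf2 spans 53 to 18984 and Hao2 3787 to 103, and open circles are readings at or under 50.

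The lowest differences were led by liver enzymes and carriers. Hao2, a peroxisomal oxidase of hydroxy acids, read 3787 in normal liver and 103 in HCC (-6.04 normalized, -5.20 deposited). Hamp2, a relative of the iron hormone hepcidin, read 3873 and 189.8 (-5.04), and Mup9, a major urinary protein gene, 1598 and 108 (-4.82). Each was bright in liver and close to the floor in the tumor. The acyl-CoA thioesterases Acot3 (5349 and 343) and Acot4 (872 and 173), the retinol dehydrogenase relative Rdh16f2 (18599.9 and 1750.0), the carboxylesterase Ces1f (1952 and 367), the aldo-keto reductase Akr1c6 (655 and 135) and the manganese exporter Slc30a10 (469 and 108) were also in the lowest 20. Single genes that repair or copy DNA stood beside these enzymes, while most DNA replication genes, counted as a list below, were not lower. Rad51b, of homologous recombination, read 6147 and 924, Mcm10, of replication initiation, 3381 and 458, and the meiosis gene Meiob 602 and 128. Over other scalings, floors and probe choices the Rad51b difference ranged from -4.02 to -1.58. All 20 were 2-fold or more lower on the deposited scale as well. Among genes at or under the floor in HCC, the sulfotransferase Sult3a1 read 12254 and 71.7 and the plasma glycoprotein gene A1bg 7847 and 54.6, at least 273-fold and 182-fold lower. A second Sult3a1 probe gave a smaller difference of -1.62. Wdr1, a factor of actin turnover used by most cells, read 3151 in normal liver and 2.31 in HCC against 9181 on the Ymac-1 array, and its other probe was at the floor on all arrays. Ctsc, a lysosomal protease, showed a like order of 397, 2.01 and 690.0.

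Many of the fetal liver and imprinted genes that could be read were higher in HCC and none was lower. Of 24 with a probe, 12 (50%) were higher and 0 lower, on the deposited scale 13 and 0, and the median over the 6 read on both arrays was 1.08. Of the 12, 6 were at or under the floor in normal liver, so their differences are bounds. Gpc3, a membrane proteoglycan of fetal liver, read 45.9 and 539 (2.67) and the fetal plasma protein Afp 11.3 and 819, at least 14.4-fold higher. The imprinted genes Peg3 (1924 and 6638), Sgce (31.3 and 272), Grb10 (113 and 394) and Impact (238 and 857) were higher by 1.22, 1.98, 1.01 and 1.14. Phlda2, an imprinted brake on placental growth, and Bex1 were dark in liver and read 261 and 365 in HCC. Not every imprinted gene took part: Cdkn1c, which restrains the cell cycle, read 145 and 238 (-0.15) and Plagl1 74.1 and 214 (0.64). Igf2bp3 and Mest reached 86.9 and 78.3 in HCC, just above the floor.

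Female-biased liver genes held the largest share of lower genes of any list with more than 2 probes. Of 20 with a probe, 10 (50%) were lower and 1 higher, and 8 and 4 on the deposited scale. Besides Sult3a1, A1bg, Hao2 and Acot3, the lower genes held 5 cytochrome P450 genes, the 4 lowest being Cyp2b13 (2866 and 209), Cyp2b9 (2839 and 258), Cyp2c38 (731 and 80) and Cyp3a44 (17973 and 2852), with differences of -4.48, -4.13, -4.25 and -2.85. The list did not move as a block. Cux2, the transcription factor that marks female liver, read 353 and 852 (0.55), Sult1a1 20030.1 and 47459 (0.96), and Fmo2, a flavin monooxygenase, was higher with 38.3 and 199 (1.28). Male-biased genes went both ways. Of 15 with a probe, 1 was higher and 3 lower (4 and 2 on the deposited scale): Mup20, the urinary pheromone carrier darcin, read 4409 and 21159.8 (1.72), while Ugt2b1, which adds glucuronic acid to steroids, read 8916 and 2163 (-2.36) and Keg1 499 and 248 (-1.84). Mup9 and Mup20, of a family of near-identical genes, thus went opposite ways, and which family members each probe reads was not analysed here.

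Cyp2b9 and Cyp2b13 differed between the arrays by nearly the same amount and are neighbours on chromosome 7. Their promoter windows, 250 bases before to 50 after the start in RefSeq (GRCm38.p6, plus strand), are printed because they show how alike the genes are, with the bases that differ after alignment in capitals. They matched at 298 of 300 bases (99.3%), and the values of these 2 probes count as uncertain, since which of the transcripts each probe reads was not analysed here. The windows are chr7:26173159-26173458 for Cyp2b9 and chr7:26061245-26061544 for Cyp2b13.
Cyp2b9: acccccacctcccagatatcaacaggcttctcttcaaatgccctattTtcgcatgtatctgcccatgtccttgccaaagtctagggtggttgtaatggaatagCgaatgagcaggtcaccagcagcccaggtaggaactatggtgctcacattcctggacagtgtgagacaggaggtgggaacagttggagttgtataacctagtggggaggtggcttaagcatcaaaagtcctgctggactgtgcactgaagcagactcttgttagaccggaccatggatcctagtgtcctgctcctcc
Cyp2b13: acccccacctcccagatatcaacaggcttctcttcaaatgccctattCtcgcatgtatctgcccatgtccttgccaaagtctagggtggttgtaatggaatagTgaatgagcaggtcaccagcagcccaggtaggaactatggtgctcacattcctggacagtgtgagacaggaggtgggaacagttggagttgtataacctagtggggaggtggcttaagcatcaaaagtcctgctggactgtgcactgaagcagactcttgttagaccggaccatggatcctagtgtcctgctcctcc

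Across cytochrome P450 genes of families 1 to 4, which oxidize drugs, steroids and fatty acids, 13 of 41 with a probe (31.7%) were lower and 3 higher, against 10 and 5 on the deposited scale. Cyp2a22 read 386 in normal liver and 13.9 in HCC, Cyp2j5, which makes epoxides of arachidonic acid, 3842 and 537 (-3.38), and Cyp2c50 16146 and 2608 (-2.87). Against this direction went Cyp2c70, which makes muricholic acids in mice, with 8674 and 29314 (1.31), and Cyp1b1, with 17.8 and 288, at least 4.64-fold higher. Cyp2b10, the classic target of the receptor Nr1i3, was within 2-fold at 145 and 274 (0.07). Of 14 sulfo- and glucuronosyltransferases, 4 were lower and 2 higher (3 and 4 on the deposited scale). Sult1e1, which inactivates estrogen, ran opposite to Sult3a1 with 47.3 and 817 (3.26).

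Nuclear receptors and other hepatocyte transcription factors gave 4 lower and 0 higher of 19, and 2 and 1 on the deposited scale. Nr0b2 (SHP), the repressor that bile acids induce, read 396 and 113 (-2.83). Nr1i3 (CAR), the xenobiotic receptor, read 2003 and 821 (-1.89), and both were lower on the deposited scale too (-1.81 and -1.29). Ppara, the regulator of fatty acid burning (2665 and 1702, -1.16), and Foxa2 (376 and 318, -1.08) passed 2-fold on the normalized scale alone, with deposited differences of -0.65 and -0.24. Hnf4a, the central factor of hepatocyte identity, was within 2-fold at 3824 and 6113 (0.20). Products of hepatocytes were mostly level: 26 of 29 lay within 2-fold, 1 was higher and 2 lower (2 and 1 deposited), with a median of 0.09. Hp (haptoglobin, 20624 and 7431, -1.78) and the carboxylesterase Ces1c (7082 and 3811, -1.27) were lower, and Itih3, which stabilizes hyaluronan matrix, was higher (6921 and 22393, 1.23).

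**Figure D3:**
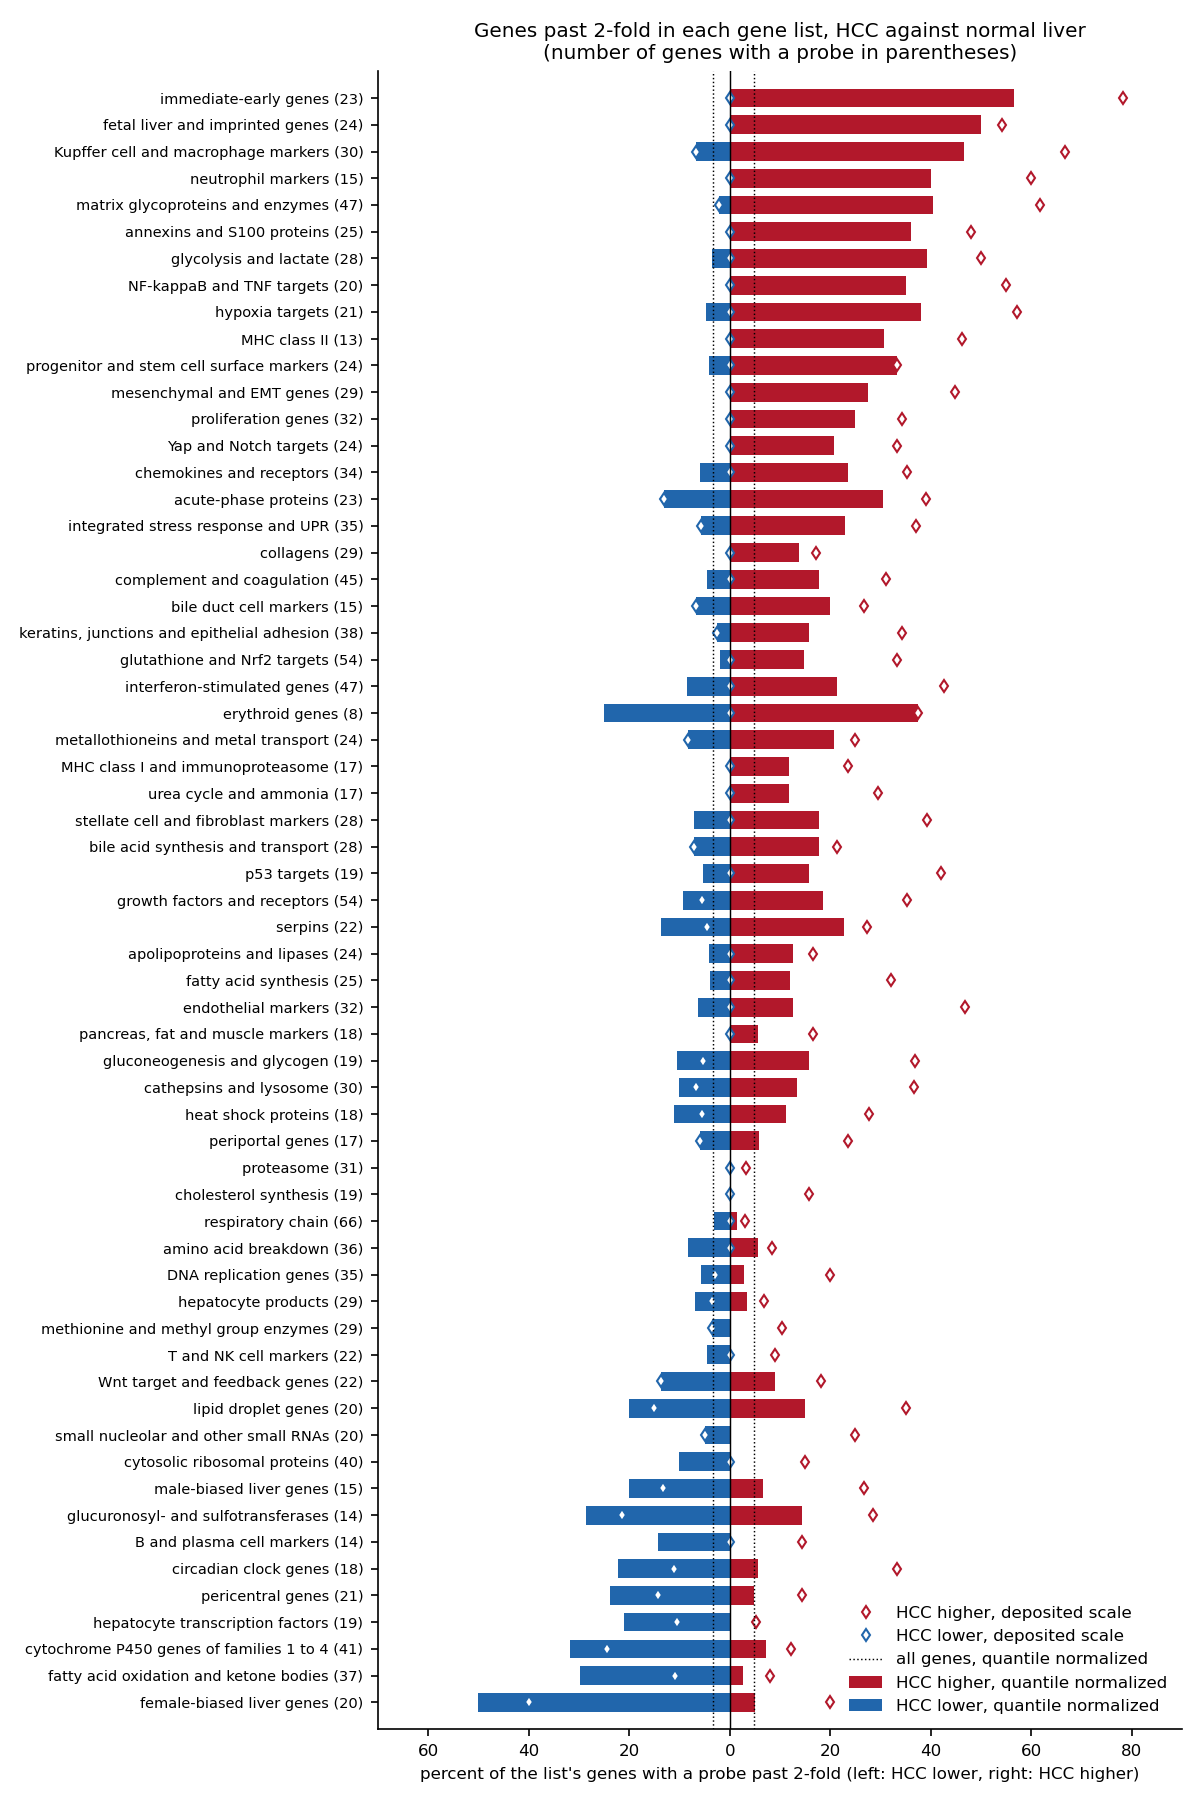
Percent of the genes with a probe in each of 61 lists that were 2-fold or more higher (red bars, right) or lower (blue bars, left) in HCC after quantile normalization, with diamonds for the same on the deposited scale and dotted lines at the 4.8% and 3.28% of all genes. Immediate-early genes lie at the top with 56.5% higher and female-biased genes at the bottom with 50% lower.

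The enzymes around Gnmt differed little. Among 29 genes of methionine and methyl group metabolism, Gnmt alone was called, and the median of the 23 read on both arrays was -0.23. Mat1a, which makes S-adenosylmethionine, read 26895 and 45855 (0.50), and Ahcy, which splits S-adenosylhomocysteine, 6149 and 11056 (0.36). Bhmt, which remakes methionine from homocysteine, read 6621 and 14827 (0.69). The enzymes that handle sarcosine and its source, Dmgdh (1507 and 1275, -0.83) and Pipox (2208 and 1740.2, -0.88), lay at the other end of the list. On the deposited scale 3 genes of the list were higher, Cth, Bhmt and Shmt2, by 1.21, 1.16 and 1.34.

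Zonation, the division of labour along the liver lobule, was read from periportal and pericentral genes. Of 17 periportal genes 1 was higher and 1 lower (4 and 1 deposited), with a median of -0.11. Of 21 pericentral genes 1 was higher and 5 lower, but on the deposited scale 3 were higher and 3 lower. The median of the 20 read on both arrays was -0.46 normalized and -0.01 deposited. Over all 21 the medians were -0.50 and 0.03, so their direction as a list rests on the scaling. The lower pericentral genes included Cyp2c29 (18297 and 6967, -1.65), the secreted Lect2 (3501 and 1611, -1.58) and the glutamate importer Slc1a2 (1704 and 916, -1.49). Gstm3, a glutathione transferase placed in the same list, stood apart at 182 and 2241 (2.94). Pericentral hepatocytes are known to be under Wnt control, and Wnt target and feedback genes gave 2 higher and 3 lower of 22 (4 and 3 on the deposited scale). Notum (163 and 41.1) and Rnf43 (300.1 and 138), 2 feedback inhibitors of Wnt, were lower, by at least 4.78-fold for Notum and with -2.07 for Rnf43. Axin2 read 55.2 and 57, at the floor in HCC after normalization, and Lgr5 383 and 428 (-0.61). Myc, which is a Wnt target and an immediate-early gene, was higher with 42.7 and 579 (2.85), as was Dkk3 with 249.9 and 1174 (1.55).

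Glycolysis held many higher genes. Of 28 with a probe, 11 (39.3%) were higher and 1 lower, on the deposited scale 14 and 0. At the entry of glucose, the transporter Slc2a1 (GLUT1) read 59.8 and 788 (2.94) and Hk2, the hexokinase that adult hepatocytes largely lack, 161 and 2946 (3.53). Pfkfb3, which makes the activator of phosphofructokinase, read 123 and 987 (2.30). Further down the pathway Aldoa and Aldoc differed by 1.18 and 1.41, and Pkm, the pyruvate kinase of tumors and most non-liver tissues, read 309 and 2151 (2.13). Ldha, the lactate-forming enzyme, was within 2-fold at 16119 and 18111 (-0.21), while Ldhb read 50.8 and 289.8 (1.57). The 3 probes of Ldha ranged from -0.98 to -0.21. Pdk1, which blocks pyruvate entry into mitochondria, was lower and at the floor in HCC, with 83.8 and 28.7. In the opposite pathway, gluconeogenesis and glycogen, 3 were higher and 2 lower of 19 (7 and 1 deposited). Ppp1r3g, a glycogen-targeting subunit of a phosphatase, read 48 and 2336 (4.82), and its relative Ppp1r3c went the other way with 2829 and 687 (-2.59).

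Hypoxia targets, a list that shares Slc2a1, Pfkfb3 and others with glycolysis, gave 8 higher and 1 lower of 21 (12 and 0 on the deposited scale). The vasodilator peptide gene Adm read 92.2 and 976 (2.70), the lipid droplet protein gene Hilpda 131 and 1645 (2.97) and Ankrd37 19.5 and 472, at least 8.05-fold higher. Car9, a carbonic anhydrase often used as a hypoxia marker, was within 2-fold at 41.2 and 85.1 (-0.22), and so was the mitophagy gene Bnip3 at 336 and 406 (-0.51). The list was therefore mixed, with strong and level members.

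Among genes that burn fatty acids or make ketone bodies, on the normalized scale, 11 of 37 (29.7%) were lower and 1 higher, with a median of -0.78, all 37 being read on both arrays. On the deposited scale 4 were lower and 3 higher and the median was -0.32. The hormone gene Fgf21 read 1518 and 369 (-2.74), the thioesterase Acot1 5892 and 1301 (-2.58), the pantetheinase Vnn1 16013 and 6665 (-1.54) and Bdh1, which makes hydroxybutyrate, 3162 and 1542 (-1.54). These 4 were lower on both scales. Oxct1, which lets tissues other than liver use ketone bodies, went opposite with 189 and 923 (1.58). Cpt1a, the carnitine step at the mitochondrial gate, was within 2-fold at 7801 and 11602 (0.13). A second Cpt1a probe gave -0.59.

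In fatty acid synthesis the desaturases led. Scd1 read 14455 and 65666, the latter near the top of the scanner's range, so that it was at least 3.99-fold higher, and Scd2 read 336 and 8835 (3.97). Of the 25 genes of the list 3 were higher and 1 lower (8 and 0 on the deposited scale), and Acly, which supplies acetyl-CoA, read 1589 and 4260.1 (0.86). Lipid droplet genes split, with 3 higher and 4 lower of 20 (7 and 3 deposited). The droplet coat protein Plin2 (12367 and 4569.5, -1.73), the lipase inhibitor G0s2 (7636 and 3459, -1.48) and the monoglyceride lipase Mgll (11059.5 and 5360.5, -1.33) were lower, and Cidea, a droplet protein of brown fat and fatty liver, was higher with 10.1 and 430.2. The adipocyte markers Adipoq (2.49 and 8.5) and Plin1 (22.9 and 59) stayed at or under the floor after normalization beside the higher Fabp4, Cidea and Lpl (473 and 10752, 3.76), the lipase that frees fatty acids from lipoproteins. Cholesterol synthesis held 19 genes, and none passed 2-fold (3 and 0 deposited), from -0.77 for Mvk to 0.60 for Insig1. In bile acid metabolism 5 were higher and 2 lower of 28 (6 and 2 deposited): Cyp8b1, which sets the share of cholic acid, read 11715 and 5670.5 (-1.33), the exporters Slc51b (119 and 733, 1.88) and Abcc4 (123 and 602, 1.54) were higher, and the rate-limiting Cyp7a1 was level at 708 and 1259.6 (0.18).

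Nitrogen metabolism was close to level. Of 17 genes of the urea cycle and ammonia handling, 2 were higher and 0 lower (5 and 0 deposited). Got1, the cytosolic aspartate transaminase, read 2750.0 and 13969 (1.76), and Arg2, the arginase outside the hepatocyte urea cycle, 17 and 196, at least 3.06-fold higher. Cps1, the entry enzyme, read 7067 and 13199 (0.42). Amino acid breakdown gave 2 higher and 3 lower of 36 (3 and 0 deposited), with Acmsd of the tryptophan pathway far out at 50.5 and 859 (3.27).

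Glutathione genes and targets of the oxidant sensor Nrf2 gave 8 higher and 1 lower of 54 (18 and 0 on the deposited scale). The members that moved were few and large: Cbr3, a carbonyl reductase, read 40.5 and 3301 (5.52), beside Gpx3, Slc7a11 and Gstm3 above. Pgd, of the pentose phosphate pathway, read 118 and 503 (1.33). Gclc, the limiting enzyme of glutathione synthesis, read 2586 and 1943 (-0.94), and Me1, which makes NADPH and is also an Nrf2 target, was lower at 1098 and 702 (-1.33). The median of the 44 genes of the list read on both arrays was 0.02. In the integrated stress response, the program that follows amino acid shortage or misfolded protein, 8 were higher and 2 lower of 35 (13 and 2 deposited). Atf3, Asns and Psat1 were at the floor in liver and read 348, 384 and 194 in HCC, Ddit3 (CHOP) read 205 and 946 (1.52), while the chaperone Hspa5 was level at 5117 and 5764 (-0.25).

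**Figure D4:**
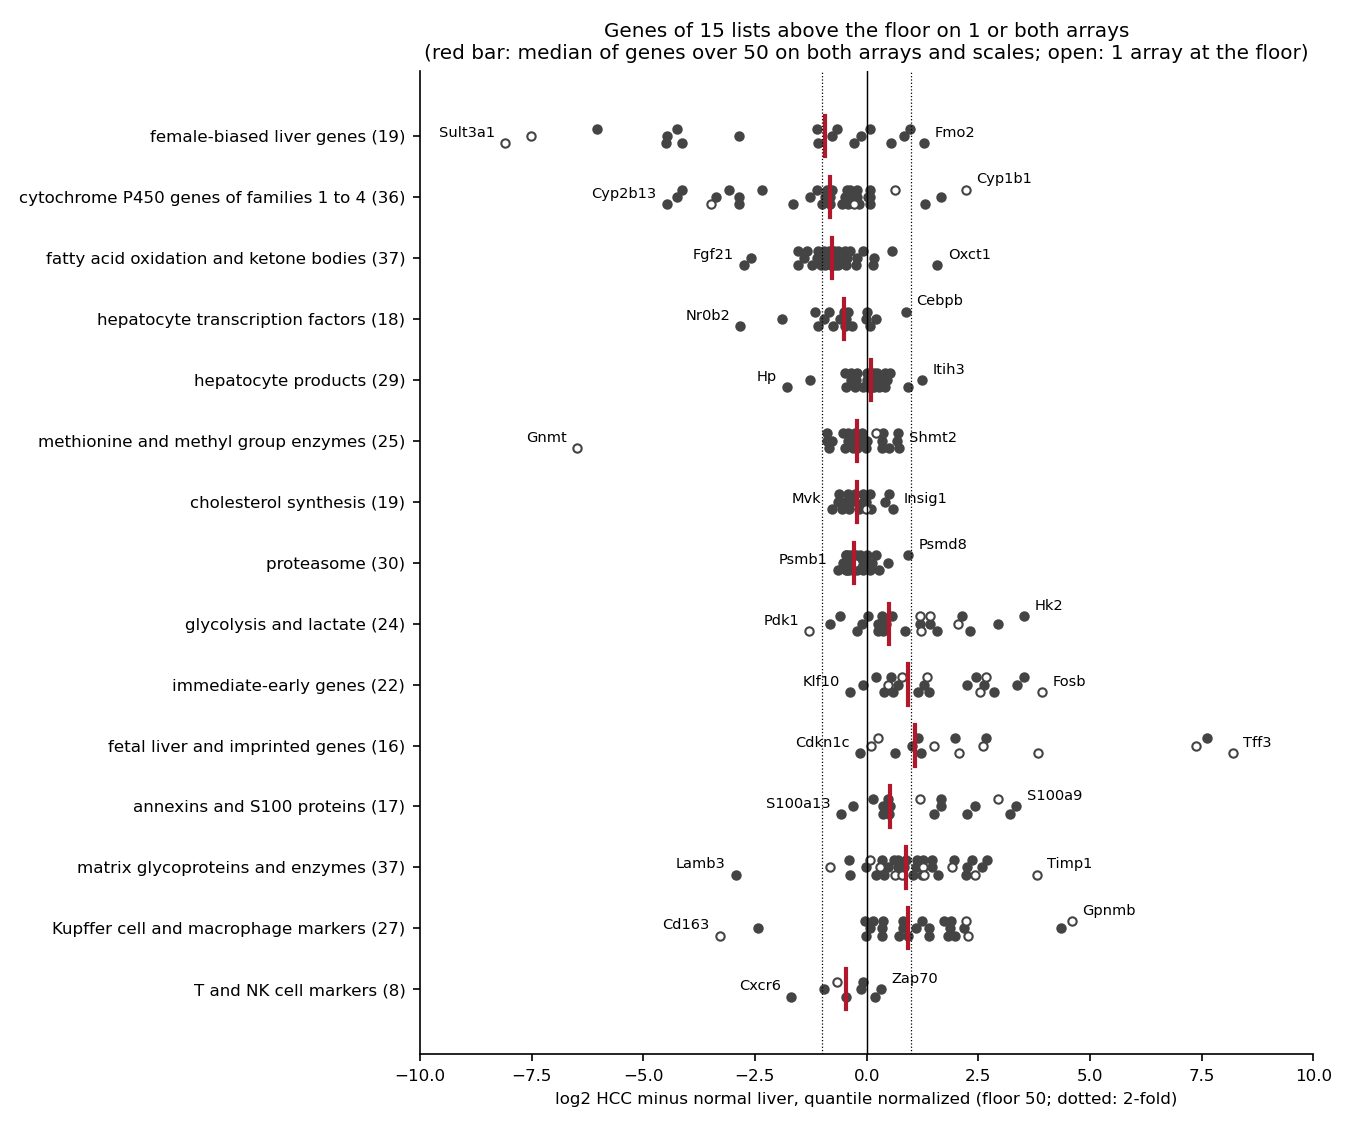
Normalized log2 difference (HCC minus normal liver) of every gene above the floor on 1 or both arrays in 15 lists, with the outermost genes named, the median of genes read on both arrays in red and open circles for genes with 1 array at the floor. Hepatocyte products and the proteasome lie close around 0, female-biased and P450 genes reach far to the left and fetal, immediate-early and macrophage genes to the right.

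Immediate-early genes, which respond within minutes to growth factors or stress, held the largest share of higher genes of the lists. Of 23 with a probe, 13 (56.5%) were higher and 0 lower, on the deposited scale 18 and 0, and the median of the 14 read on both arrays was 0.93. The AP-1 subunits Fos (163 and 2651, 3.36) and Fosb (14.1 and 863, at least 15.2-fold) stood highest with Ier3 (32.8 and 754, 3.52). Jun, their usual partner, was within 2-fold at 422 and 904 (0.40). The kinase phosphatase Dusp1 read 295 and 2850.4 (2.62) and the antiproliferative Btg2 20.5 and 377 (2.66, a bound).

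The cAMP response element TGACGTCA, searched on both strands, was the motif chosen for these genes. It lay in 1.79% of 32851 promoter windows of RefSeq (GRCm38.p6) that were searched and in the windows of 2 of the 12 higher immediate-early genes with a window, Dusp1 and Btg2. The stretches of 100 bases around it are printed, with the motif in capitals, because these 2 are the higher genes of the list that hold it. They are chr17:26508562-26508661 and chr1:134079268-134079367, both on the minus strand. A match of letters is a description and no evidence of binding.
Dusp1: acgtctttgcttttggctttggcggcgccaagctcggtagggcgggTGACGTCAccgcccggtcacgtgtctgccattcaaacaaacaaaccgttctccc
Btg2: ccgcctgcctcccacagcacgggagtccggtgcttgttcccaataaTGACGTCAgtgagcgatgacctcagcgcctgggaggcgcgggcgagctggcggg

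More inflammatory target genes were higher than lower. NF-kappaB and TNF targets gave 7 higher and 0 lower of 20 (11 and 0 on the deposited scale). Vcam1, the adhesion molecule that catches leukocytes, read 1928 and 11169 (1.90) and Tnfaip3 (A20), a brake on NF-kappaB, 151 and 936 (1.92), whereas Nfkbia, the classic feedback inhibitor, was level at 6858 and 8629.6 (-0.13). Acute-phase genes split 7 higher to 3 lower of 23 (9 and 3 deposited). Socs3, a brake on cytokine signals, read 266 and 2561 (2.61), Serpina3n 357 and 1589 (1.47) and the copper carrier Cp 3729 and 14818 (1.45), but Hp, Hamp2 and Saa4 (5370.1 and 2198, -1.69) were lower. A second Cp probe gave 0.70. The list thus held genes far apart in both directions. Chemokines and their receptors gave 8 higher and 2 lower of 34 (12 and 0 deposited), among them the neutrophil attractants Cxcl1 (158 and 751, 1.50) and Cxcl2 (10.6 and 332, at least 5.46-fold higher) and the monocyte attractant Ccl2 (25.7 and 236, at least 3.74-fold higher).

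Most genes of cell division were dim, and those that passed 2-fold were all higher in HCC. Of 32 proliferation genes with a probe, 8 (25%) were higher and 0 lower (11 and 0 on the deposited scale), 14 were at the floor on both arrays and 10 were within 2-fold. The median of the 6 genes read on both arrays was -0.34. Of the 8 higher genes, 7 were at or under the floor in liver. The proliferation antigen Mki67 read 20.8 in normal liver and 227 in HCC, the mitotic kinase Plk1 20.6 and 216, cyclin Ccna2 17.1 and 211 and the spindle midzone gene Prc1 14.5 and 293, at least 3.58-fold, 3.41-fold, 3.32-fold and 4.71-fold higher. Cep55, of the last step of cell division, stood out at 137 and 1572 (2.85). Ccnd1, a cyclin of the first growth phase, was within 2-fold at 3997 and 3391 (-0.68). DNA replication genes gave 1 higher and 2 lower of 35, and the balance turned round on the deposited scale with 7 higher and 1 lower. Rrm2, which makes deoxynucleotides, was the higher gene with 39.9 and 447 (2.53), and the replicative genes Cdt1 and Lig1 lay at 0.90 and 0.53. Among p53 targets 3 were higher and 1 lower of 19 (8 and 0 deposited), with the cell cycle inhibitor Cdkn1a at 1804 and 7943 (1.55) and the death receptor gene Fas at 288 and 190.5 (-1.49).

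The cell cycle homology element TTTGAA, which marks promoters switched on in late division phases, was searched on both strands. It was found in 17.9% of the promoter windows searched, in 17 of the 26 proliferation genes with a window and in 6 of the 7 higher ones. The windows around it in Mki67 (chr7:135716443-135716542, minus strand) and Plk1 (chr7:122159385-122159484, plus strand) are printed as examples of genes read in HCC alone, with the element in capitals.
Mki67: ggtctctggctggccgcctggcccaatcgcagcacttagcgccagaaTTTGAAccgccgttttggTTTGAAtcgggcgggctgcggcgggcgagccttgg
Plk1: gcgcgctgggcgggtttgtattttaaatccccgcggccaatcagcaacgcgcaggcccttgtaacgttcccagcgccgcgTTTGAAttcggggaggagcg

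Markers of immune cells did not move together. In bulk tissue more cells of a type and more RNA per cell cannot be told apart. Kupffer cell and macrophage genes gave 14 higher and 2 lower of 30 (20 and 2 on the deposited scale), with a median of 0.93 over the 21 read on both arrays. Gpnmb and Trem2, known from lipid-laden and scar-associated macrophages, were under the floor in liver and read 1337 and 289 in HCC, and the lysosomal Cd68 read 160.0 and 1183 (2.19). The markers of resident Kupffer cells took another course. Clec4f was level at 667 and 1335 (0.35), as were Timd4 (136 and 243, -0.03) and Vsig4 (153 and 292, 0.08), and the scavenger receptors Marco (693 and 229, -2.44) and Cd163 (337 and 28.6, at least 9.79-fold) were lower. Over the 5 macrophage markers with a probe in the marker set the summed deposited level was 1892 in normal liver and 3640.2 in HCC, and the summed normalized level 2699 and 3205.

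Neutrophil genes gave 6 higher and 0 lower of 15 (9 and 0 on the deposited scale). S100a9, an abundant neutrophil calcium-binding protein, read 149.8 and 2431 (3.35), Retnlg 76.8 and 881 (2.79), and the granule genes Camp (441 in HCC) and Prtn3 (511) were under the floor in liver. The defining markers S100a8 and Ngp stayed at the floor on both arrays. Erythroid genes went both ways, with 3 higher and 2 lower of 8 and 3 at the floor (3 and 0 deposited). Klf1, a transcription factor of red cell precursors, read 142 and 121 (-1.22) and the carbonic anhydrase Car2 139.5 and 129 (-1.09), both lower on the normalized scale alone. Higher were Slc4a1, the red cell anion exchanger, which read 8.11 and 403, and the 2 markers of the list: Hbb-b1, a globin of a near-identical family, read 347 and 5294 (3.25) and the heme enzyme of red cell precursors Alas2 772 and 6416 (2.39). The deposited sum of these 2 markers was 1118 in normal liver and 11709.9 in HCC, and the normalized sum 1600.3 and 10554. What blood in the samples adds to the neutrophil and erythroid differences was not tested. Lymphocyte markers were dim. Of 22 T and NK cell genes 14 were at the floor on both arrays, 0 were higher and 1 was lower, Cxcr6 (187 and 117, -1.69), against 2 higher and 0 lower on the deposited scale. Of 14 B and plasma cell genes 0 were higher and 2 lower, Jchain (291 and 160.2, -1.79) and Derl3, while on the deposited scale 2 others were higher, Cd22 and Cd79b, and 0 lower.

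**Figure D5:**
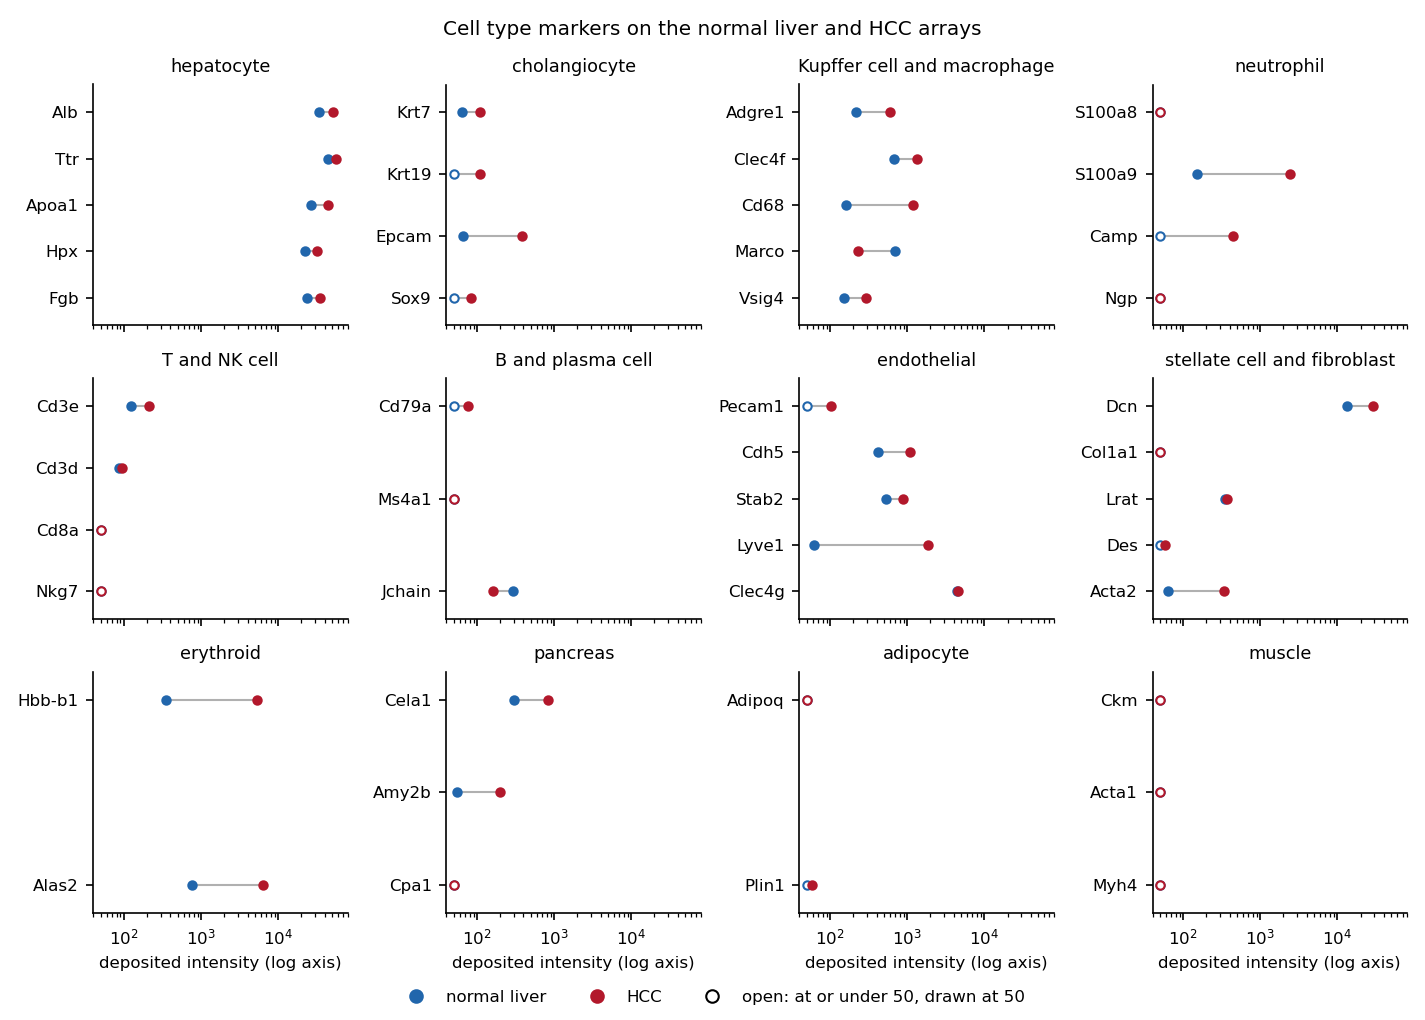
Deposited intensity (log axis) of cell type markers on the normal liver (blue) and HCC (red) arrays, 1 panel per cell type, with open circles for readings at or under 50. Hepatocyte markers are bright on both arrays, Lyve1, S100a9 and Hbb-b1 are far apart, and T, B, fat and muscle markers are low on both.

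Antigen presentation genes were counted by class. For MHC class II 4 were higher and 0 lower of 13 (6 and 0 deposited). Beside H2-Eb1, H2-Ab1 read 145 and 637 (1.40) and H2-Aa 6610.2 and 19279.8 (1.04), while the invariant chain Cd74 was within 2-fold at 519.9 and 1521 (0.88). The probes of Cd74 ranged from 0.71 to 1.40. H2-Aa and H2-Ab1 thus differed by similar amounts and H2-Eb1 by more, while H2-Ea read 37.4 and 16.6 (-0.32), at the floor in HCC. MHC class I and the immunoproteasome gave 2 higher and 0 lower of 17 (4 and 0 deposited). The classical class I chains H2-K1, H2-D1 and H2-L had no named probe, so this count rests on other genes of the list. Tapbp, which loads peptides, read 1728 and 6344 (1.30) and H2-Q1 31.2 and 497 (2.95). The immunoproteasome subunits Psmb8 and Psmb9 went opposite ways within 2-fold, at 0.77 and -0.58.

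Most interferon-stimulated genes were within 2-fold or at the floor, and those that passed went both ways. Of 47 with a probe, 10 (21.3%) were higher and 4 (8.51%) lower, 27 were within 2-fold and 6 at the floor, and on the deposited scale 20 were higher and 0 lower. Among the higher genes, the antiviral Ifit1 read 43.1 and 285 (1.72), the ubiquitin-like modifier Isg15 83.1 and 364 (1.33), its protease Usp18 43.9 and 382 (2.19) and the lipid radical enzyme Rsad2 (viperin) 136 and 795 (1.83). The lower genes were 3 GTPases of the interferon gamma response and the antiviral Mx2. Irgm2 read 979.8 and 594 (-1.43), Igtp 2122 and 1200.0 (-1.37) and Gbp7 217 and 195 (-1.04), beside Mx2 (278 and 189, -1.46). Their deposited differences were -0.72, -0.82, -0.15 and -0.56, all under 2-fold but each below 0 on either scale.

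Higher and lower genes held the core of the interferon-stimulated response element in their promoter windows. This core, searched as GAAA followed by any 2 bases and GAAA again, on either strand and with overlaps counted, lay in 3.44% of the promoter windows searched and in 21 of the 39 interferon-stimulated genes with a window, among them 3 of the 7 higher and 3 of the 3 lower genes that have one. These 6 are printed as stretches of 100 bases with the motif in capitals, because the core occurs in genes higher and in genes lower in HCC. Higher in HCC were Ifit1 (chr19:34640740-34640839, plus strand), Isg15 (chr4:156200842-156200941, minus) and Rsad2 (chr12:26456518-26456617, minus), and lower were Igtp (chr11:58199477-58199576, plus), Irgm2 (chr11:58214868-58214967, plus) and Gbp7 (chr3:142530238-142530337, plus). The Igtp and Irgm2 stretches come from neighbouring genes and are near copies of each other.
Ifit1: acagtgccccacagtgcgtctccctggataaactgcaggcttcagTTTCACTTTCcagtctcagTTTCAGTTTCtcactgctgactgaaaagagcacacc
Isg15: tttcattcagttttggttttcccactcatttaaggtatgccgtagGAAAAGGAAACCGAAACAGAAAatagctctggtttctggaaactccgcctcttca
Rsad2: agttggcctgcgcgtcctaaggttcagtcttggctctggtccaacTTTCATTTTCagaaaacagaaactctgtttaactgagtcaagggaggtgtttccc
Igtp: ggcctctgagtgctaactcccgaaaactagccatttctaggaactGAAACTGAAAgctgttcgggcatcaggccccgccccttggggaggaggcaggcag
Irgm2: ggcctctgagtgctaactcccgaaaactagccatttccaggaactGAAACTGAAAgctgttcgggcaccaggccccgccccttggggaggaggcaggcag
Gbp7: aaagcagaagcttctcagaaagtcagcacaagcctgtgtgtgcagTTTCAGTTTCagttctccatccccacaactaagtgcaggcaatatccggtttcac

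Vessel genes were mostly level with a few far apart. Of 32 endothelial genes 4 were higher and 2 lower (15 and 0 on the deposited scale), with a median of 0.12. Lyve1, a hyaluronan receptor of sinusoidal and lymphatic endothelium and of some macrophages, read 61 and 1849.5 (4.18), Vwf, which is low in normal sinusoids, 81.5 and 1067 (3.02) and Cd34, a marker of capillary endothelium, 97.2 and 467 (1.49). The sinusoidal markers Stab2 (531 and 886, 0.04) and Clec4g (4466 and 4582, -0.41) were level, and the growth factor receptor Kdr was lower on the normalized scale alone (402 and 319, -1.16). Complement and clotting genes gave 8 higher and 2 lower of 45 (14 and 0 deposited). The higher genes included the macrophage-made C1qc (799 and 3281, 1.41) and the plasminogen activator Plat (57 and 1489.7, 3.96), and hepatocyte-made members such as Serpinc1 (antithrombin, 28333 and 29546, -0.27) were level.

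Many matrix glycoproteins and enzymes were higher in HCC, and most collagens could not be read. Of 47 matrix glycoproteins and enzymes, 19 (40.4%) were higher and 1 lower (29 and 1 on the deposited scale), with a median of 0.87 over the 25 read on both arrays. The protease inhibitor Timp1 was under the floor in liver at 14.1 and read 802 in HCC, the matricellular Sparc read 251 and 2525 (2.69) and the crosslinking enzyme Loxl2 247 and 1832 (2.22). The basement membrane genes Nid1 (174 and 1428, 2.35) and Lama5 (28.3 and 364, 2.57) were higher, and Lamb3, of the laminin of surface epithelia, was the lower gene at 755 and 184 (-2.92). Of 29 collagens 16 were at the floor on both arrays, 4 were higher and 0 lower (5 and 0 deposited), and the median of the 7 read on both arrays was 1.67. The higher genes were Col4a1 (253 and 2591, 2.71), Col4a2 (525 and 3776, 2.20), Col6a1 and Col6a3. These are chains of basement membrane collagen IV and of collagen VI. Of the fibrillar collagen I genes, Col1a1 read -0.483 and 0.584, with its probe at the floor on every array, and Col1a2 1.93 and 108. Stellate cell and fibroblast genes gave 5 higher and 2 lower of 28 (11 and 0 deposited), with the contractile Acta2 at 64.4 and 342 (1.57), Pdgfrb at 141 and 492 (1.03) and the vitamin A storage enzyme of quiescent stellate cells, Lrat, at 346 and 367 (-0.72).

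Most epithelial and mesenchymal genes were within 2-fold or at the floor, and in both lists more were higher than lower. Of 38 keratin, junction and adhesion genes 6 were higher and 1 lower (13 and 1 deposited), and of 29 mesenchymal genes 8 were higher and 0 lower (13 and 0 deposited). The adhesion molecule Cdh1 (E-cadherin) read 48.2 and 817 (3.24) and Epcam, of bile ducts and progenitors, 66.5 and 382 (1.71), while Cdh2 (N-cadherin), which hepatocytes carry, was within 2-fold at 794 and 866 (-0.56). The intermediate filaments Krt8, of hepatocytes and ducts, and Vim, of mesenchyme, differed by 1.87 and 2.23. The repressors of E-cadherin were within 2-fold, with Snai1 at 0.08, Snai2 at 0.68 and Zeb1 at 0.20. Bile duct cell markers gave 3 higher and 1 lower of 15 (4 and 1 deposited). The higher genes were Elf3, Epcam and the annexin Anxa13 (3.52 and 151, at least 2.28-fold), and the lower gene was the keratin Krt23 (379 and 121, -2.66). Others were dim: Krt19 read 13.1 and 110.2, Sox9 16 and 83.6 and Krt7 63.4 and 108, all within 2-fold after normalization. Progenitor and stem cell surface markers gave 8 higher and 1 lower of 24 (8 and 0 deposited). Besides Epcam these held Itga6, a laminin receptor (40.7 and 389, 2.29), and Tnfrsf12a, the receptor through which injured liver expands progenitors (1926 and 11701, 1.98), whereas Prom1 (CD133) read 101 and 178 (-0.12), Thy1 92.6 and 131 (-0.48) and the lower gene Anpep (CD13) 164 and 154 (-1.04). The pluripotency genes Nanog and Sox2 were at the floor on both arrays.

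Annexins and S100 proteins, which bind calcium at membranes, gave 9 higher and 0 lower of 25 (12 and 0 on the deposited scale). Anxa2 read 1536 and 13268 (2.43), Anxa5 622 and 9472 (3.21) and S100a11 17.1 and 449, at least 7.66-fold higher. Anxa4 was within 2-fold with 625 and 1260.4 (0.36).

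Growth factors and receptors gave 10 higher and 5 lower of 54 (19 and 3 on the deposited scale). Igfbp1, a liver-made binder of insulin-like growth factors, read 6009 and 49452 (2.63), and Igf1, the postnatal partner of Igf2, 1919.8 and 1499 (-0.91). A second Igf1 probe went the other way at 0.44, so the direction of Igf1 is uncertain. The activin genes divided by subunit. The liver subunits Inhbc (1349.7 and 412, -2.41) and Inhbe (1036 and 586, -1.52) and the subunit Inhba (132 and 53.2, at least 3.83-fold) were lower, while Inhbb (13 and 284, at least 4.57-fold) and the activin-binding Fst (29.1 and 365, 2.55) were higher. Pdgfa (267 and 2039, 2.25) and its receptor genes Pdgfra and Pdgfrb were higher, as was Tgfbr2 (1246 and 8478, 2.11). Yap and Notch targets gave 5 higher and 0 lower of 24 (8 and 0 deposited), from Axl at 1.05 to Ajuba at 1.91.

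Iron and zinc handling held some of the most unequal pairs. Of 24 genes of metal transport 5 were higher and 2 lower (6 and 2 deposited). The transferrin receptor Tfrc read 280.0 and 1543 (1.79) and the zinc importer Slc39a4 1769.8 and 9479 (1.80), while the hepcidin relative Hamp2 was lower and the iron exporter Slc40a1 level at 17443 and 18887 (-0.22). Lysosomal genes gave 4 higher and 3 lower of 30 (11 and 2 deposited). Lipa, the acid lipase of cholesteryl esters, read 2635 and 877 (-2.15) and was lower together with Ctsc and Ctsf (533 and 317, -1.56), and the macrophage protease Ctss was higher at 309 and 1201 (1.28).

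Clock genes, whose transcripts swing over the day, gave 1 higher and 4 lower of 18 (6 and 2 on the deposited scale). The output factors Dbp (4215 and 2056, -1.49) and Hlf (932 and 401, -1.95) and the repressor Nr1d1 (172 and 98.7, -1.87) were lower, and Per1 was higher (451 and 1569, 1.14).

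Most genes of large housekeeping complexes that could be read were within 2-fold. None of 31 proteasome genes passed 2-fold (1 and 0 deposited), between -0.64 for Psmb1 and 0.93 for Psmd8. Respiratory chain genes gave 1 higher and 2 lower of 66 (2 and 0 deposited), and Ndufv3, a subunit of complex I with tissue-specific forms, was the higher gene at 1402 and 9457 (2.08). The 3 probes of Ndufv3 disagreed, ranging from 0.14 to 2.08. Ribosomal protein genes gave 0 higher and 4 lower of 40, but 6 higher and 0 lower on the deposited scale, with Rps27l at 2293 and 1217 (-1.45) and Rpl8 at 5092 and 2986 (-1.16). Heat shock genes gave 2 higher and 2 lower of 18 (5 and 1 deposited), with Hspa2 at 323 and 2014 (1.96) and Dnaja1 at 5703 and 2675 (-1.48). The other Dnaja1 probe gave a smaller difference of -0.51.

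Probes of the same gene could be compared for 119 of the called genes, those with more than 1 probe above the floor. These probes all passed 2-fold in 53 of the genes, and in 0 did a probe pass 2-fold the other way. Probes at the floor on both arrays were not counted. Among the called genes with such a probe were H2-Eb1, Cd63, Gpnmb, Btg2, Cyp2j5, Mki67, Epcam, Acta2, Nid1, Jchain and Axl. The median range between a gene's probes was 0.38 on the log2 scale. It was taken over the genes with more than 1 probe above the floor, called or not, which by coincidence are also 916 in number. Near the thresholds, differences of the size of that range separate called from uncalled genes.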

How the data were processed

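Total RNA of 1 ug was amplified into labelled antisense RNA, read in Cy5 on Mouse Whole Genome OneArrays. The authors deposited 26423 linear, background-subtracted intensity values per array. Not given in the sources used here are the scanner, the background step and any scaling of the arrays to each other. Having 1 array per group limits precision.

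Symbols were taken from GEO's platform annotation, where 21876 probes had 1 symbol, 0 had several and 4547 had none, and the Entrez ID of 21825 was found in the NCBI gene table. Each gene took its probe with the highest mean log2 intensity over the 3 arrays, values under 50 set to 50. The 3 columns were quantile normalized, floored at 50 and compared as log2 HCC minus normal liver, with 1 as the threshold. A fold against a reading at the floor is a lower bound computed against 50. Shares have Wilson 95% intervals in the closing section. These treat genes as independent draws and do not cover differences between animals, arrays or scalings. Simulated data with planted log2 differences of 2 and 3 in size gave 50 of 50 genes called at each, and 0 of 18884 others. The noise was set small and the planted genes were of middle brightness with a single probe. The simulation thus checks the computing steps and does not measure the error of calls on these arrays.

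The genes and the 63 lists were chosen with earlier results of these data known. Named genes are the 20 highest and 20 lowest among those over 50 on both arrays on both scales, the 10 brightest at the floor on either array, the 5 highest and 5 lowest of each list, every member of lists of up to 15, the genes the study names and the cell type markers. Further list members were named after their values were seen, among them the genes with printed promoters. Of the genes the study names, 1 is not reported here. RefSeq promoters (GRCm38.p6) were matched by symbol. Alternatives were other scalings, floors, probe choices and thresholds. Python 3.11.15, pandas 2.3.3, numpy 2.4.6 and matplotlib 3.10.9 were used.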

Additional observations from a re-analysis of the deposited data

Results flagged for a closer look

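Probes without a gene name lay outside every comparison above, and 60 of 4547 read 2-fold or more higher in HCC than in normal liver, against 79 that read lower, with 825 above the floor on 1 or both arrays. They were looked at because they carry signal in data that the comparison of genes did not use. The highest went from 43.5 in normal liver to 4673 in HCC, a normalized log2 difference of 5.93. The lowest went from 12774 to 5.35, a difference of -8.16 and a bound at the floor. What these probes read was not analysed here.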

How the results depend on the processing

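The counts of 916 higher and 626 lower genes (59.4% higher, Wilson 95% interval 56.9 to 61.8) depend on the scaling. On the deposited scale 3028 genes were higher and 143 lower (95.5% higher), and after centring on the median probe of each array 557 and 2217 (20.1%). The 557 were all among the 916 higher genes, and the 2217 held all 626 lower ones. Upper quartile scaling gave 955 and 701, and quantile normalization over the 2 tissue arrays 885 and 603. Among genes over 50 on both arrays on both scales the counts were 546 and 533 (50.6%): of the higher genes 251 at the normalized floor in liver and 119 others under 50 there as deposited dropped out. With the normalized floor alone, a filter chosen after seeing the data, they were 665 and 533 (55.5%). A threshold of 0.5 gave 2008 and 2134 (48.5%) and of 2 gave 253 and 94 (72.9%). Other floors, the floor set first and other probe choices kept both counts within 1.5 times. Of 294 named genes past the threshold, 183 stayed past it in the same direction under all 9 alternatives for single genes, 245 of them under the deposited scaling and 258 under median centring. Hand2, of stellate cells, was lower at -1.05 and changed sign to 0.059 on the deposited scale, which follows from the scaling. No paired analysis was possible because each group has 1 array. Differences in genes dimmer than the floor were not detectable.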
